A study of Papio hamadryas with 72 samples.

Results

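Omental adipose of juvenile baboons (Papio hamadryas, about 4.5 years old) was compared between MUN and CON offspring at the end of 7 weeks on an HFCS diet, which is rich in fat and carbohydrate and was given together with a fructose drink. The arrays were chosen by the tissue, group and diet labels. They number 12 of the 72 arrays of the series, 6 from MUN and 6 from CON animals, with 3 females and 3 males in each group. Mothers of MUN offspring were fed a restricted amount of chow in pregnancy and lactation, and mothers of CON offspring ate freely. All offspring of both groups ate chow until the challenge, and the same 12 animals gave an adipose biopsy on chow before it, so that 24 adipose arrays were fitted together. No animals stayed on chow for the 7 weeks, so an effect of the diet, of age and of the first biopsy cannot be told apart.

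Omental fat lies inside the abdomen and drains towards the liver. Its adipocytes take up fatty acids and make some from sugar, store both as triglyceride and release them again, and they secrete hormones such as leptin. The tissue also holds stromal cells, vessels, macrophages and a mesothelial covering. In bulk tissue, fewer cells of a type and less RNA per cell cannot be told apart.

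RNA was hybridised to Illumina BeadChips with probes for human transcripts, on which a gene can look dim where the baboon sequence differs. Levels are log2 signals, and a difference of 1 is a factor of 2. After a filter on detection 9277 genes were tested, with a median level of 7.85. Genes were called differentially expressed (DEG) in limma where the p adjusted by Benjamini-Hochberg was below 0.05 and the levels differed by a factor of 1.2 or more. The adipose arrays were alike, with a median correlation to the others between 0.955 and 0.974. MUN arrays on HFCS detected between 12210 and 13206 probes with a median of 12815, and CON arrays between 12965 and 14438 with a median of 13251. This difference had an exact two-sided permutation p of 0.0281, and 0.0843 after adjustment over 3 array measures. The other measures, the median signal and the signal of the brightest 5% of probes, had exact permutation p of 0.32 and 0.972. The part of detection in the differences of dim genes was not tested.

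The label of the tissue was checked against adipocyte markers. FABP4, a fatty acid carrier of adipocytes, had a mean level of 14.51, CD36 one of 12.77 and PPARG one of 11.74, all far above the median gene. Of the 23 markers of adipocyte identity 17 were measured. ADIPOQ was detected on 17 of 24 arrays and LPL on 6, and CFD, PLIN4, SLC2A4 and G0S2 did not pass the filter.

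Between MUN and CON on HFCS, 1 gene was higher (0.0108%) and 1 was lower (0.0108%) by the DEG criteria, together 0.0216% of the genes tested. RPL13AP5, a processed pseudogene of the gene for ribosomal protein L13a, was higher in MUN than in CON. WWP1, a ubiquitin ligase of the NEDD4 family that marks proteins for degradation or sorting, was lower in MUN than in CON. Neither was called when the 12 HFCS arrays were fitted alone or after normexp background correction. At an unadjusted p under 0.05 there were 903 genes (9.73%), 383 of them higher (4.13%) and 520 lower in MUN (5.61%). By sign alone 50.6% of genes were above and 49.4% below CON. On chow, before the challenge, limma called 0 genes (0.0%), 326 (3.51%) had an unadjusted p under 0.05 and 48.9% were below CON. On HFCS the values of the 6 MUN and the 6 CON animals did not overlap for 75 genes (0.808%), 41 above CON (0.442%) and 34 below it (0.366%). On chow they did not overlap for 19 (0.205%), 7 above (0.0755%) and 12 below (0.129%).

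RPL13AP5 had log2 signals of 12.41, 12.49 and 12.53 in MUN females and 12.52, 12.72 and 12.75 in MUN males on HFCS, against 12.09, 12.1 and 12.21 in CON females and 11.98, 12.13 and 12.21 in CON males. The lowest MUN animal stood above the highest CON animal. The difference was 0.45 ± 0.07 (SE), or 1.37-fold, with an adjusted p of 0.0169 in limma. On chow the same animals averaged 12.51 ± 0.09 in MUN and 12.45 ± 0.14 in CON (SD, n = 6 each), and the groups overlapped. A second RPL13AP5 probe had a difference of 0.41. The probe of RPL13AP6 had 0.37 and the probe of the parent gene RPL13A had 0.29, neither called, whereas RPL13AP3 and RPL13AP20 both had 0.08. These near-identical transcripts can share signal, and the source of the RNA within the family is uncertain. Without MUN replicate 2, 4 or 6 or CON replicate 3, 4 or 6 the adjusted p of RPL13AP5 lay between 0.0575 and 0.114. It was 0.118 with the 12 HFCS arrays alone and 0.0671 after normexp.

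WWP1 had log2 signals of 7.98, 8.09 and 8.18 in MUN females and 8.06, 8.08 and 8.15 in MUN males on HFCS, against 8.35, 8.51 and 8.59 in CON females and 8.37, 8.38 and 8.60 in CON males. All MUN animals were below all CON animals. The difference was -0.37 ± 0.07 (SE), a level 1.30-fold lower in MUN, with an adjusted p of 0.036. On chow the difference was -0.16, with 8.06 ± 0.10 in MUN and 8.22 ± 0.11 in CON (SD, n = 6 each). The difference on HFCS was -0.40 in females and -0.35 in males. The adjusted p of WWP1 lay between 0.0566 and 0.171 without any 1 of the 6 MUN replicates or without CON replicate 2, 3, 4 or 6, and it stayed under 0.05 without CON replicate 1 or 5. It was 0.161 with the 12 HFCS arrays alone, 0.0671 after normexp and 0.0534 with normalization over all 72 arrays.

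**Figure D1:**
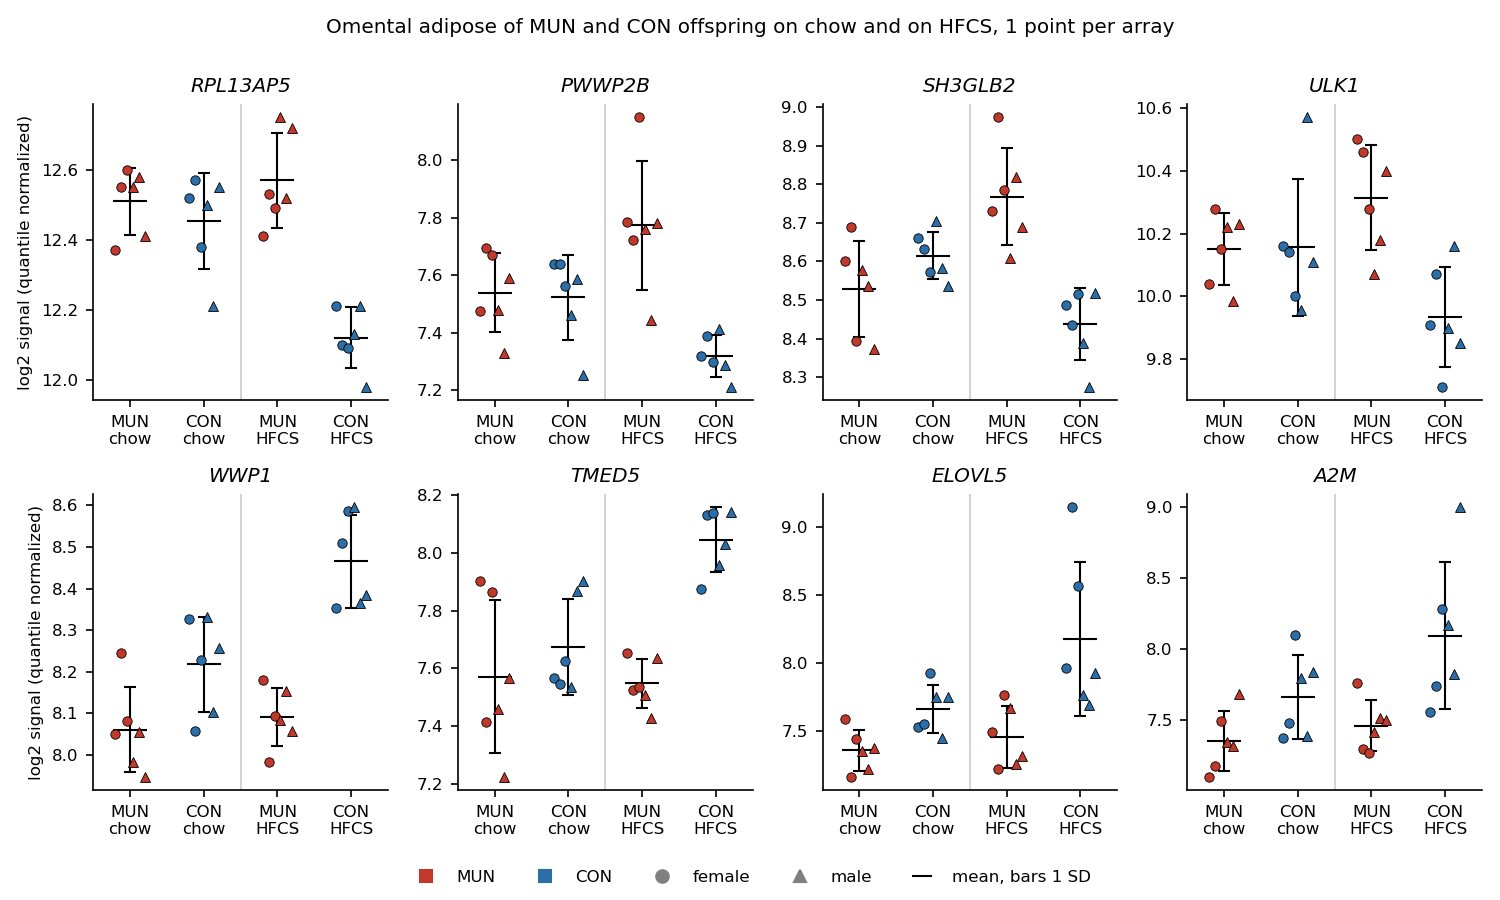
Log2 signal of 8 genes in omental adipose, with 1 point for each animal (circles females, triangles males), MUN left of CON on chow and then on HFCS, and bars of 1 SD about the mean. On HFCS the 2 groups do not overlap for RPL13AP5, PWWP2B, SH3GLB2, WWP1 and TMED5, and on chow the groups overlap for all 8 genes.

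WWP1 was set beside other ligases of the NEDD4 family and their adaptors, of which 6 of 11 were measured. NDFIP1, an adaptor that recruits and activates these ligases, had 7.98, 8.21 and 8.34 (lowest, median, highest) in MUN and 8.34, 8.48 and 8.65 in CON. The groups overlapped only at their edges, and the difference of -0.29 ± 0.10 was not called (adjusted p = 0.312). WWP2 had a difference of 0.10, NEDD4L one of 0.05 and NDFIP2 one of 0.01, with NEDD4 at -0.00, and the median over the 6 genes was 0.01.

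The 11 next genes above CON by p were not called, with differences between 0.27 and 0.46. PWWP2B, whose PWWP domain binds chromatin, had 7.45, 7.77 and 8.15 (lowest, median, highest) in MUN and 7.21, 7.31 and 7.41 in CON. The groups did not overlap, and the adjusted p was 0.0687. PWWP2B was detected on 6 of 6 MUN and 3 of 6 CON arrays on HFCS. SH3GLB2, an endophilin that shapes membranes, had 8.61, 8.76 and 8.97 in MUN and 8.28, 8.46 and 8.52 in CON (adjusted p = 0.0795). ULK1, the kinase that starts autophagy, had 10.07, 10.34 and 10.50 in MUN and 9.71, 9.90 and 10.16 in CON. Its groups overlapped, a second probe had 0.40 against 0.38 for the first, and the adjusted p was 0.156.

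The same adjusted p of 0.156 belonged to SMARCB1 (0.33), a core subunit of SWI/SNF chromatin remodelling complexes, and to CDK2 (0.32), a kinase of the cell cycle. It also belonged to NDUFA11 (0.36), a subunit of respiratory complex I, to CDC42EP4 (0.41), an effector of the GTPase CDC42, and to NPDC1, FAM89B, RPL13AP6 and ARMCX1. The second probes of SMARCB1 and CDK2 had differences of 0.03 and -0.01. On chow the differences of the 12 genes with the smallest p above CON on HFCS ran between -0.09 and 0.19.

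Below CON the 11 next genes were not called either, with differences between -0.31 and -0.83. TMED5, a carrier of cargo between the endoplasmic reticulum and the Golgi apparatus, had 7.43, 7.53 and 7.66 in MUN and 7.88, 8.08 and 8.14 in CON. The difference was -0.50 ± 0.10 with an adjusted p of 0.0687, and the groups did not overlap. ACTR6, a subunit of a complex that exchanges histone H2A.Z, had -0.32 and was detected on 1 of 6 MUN and 6 of 6 CON arrays. CD24, a surface glycoprotein, was detected on no MUN array and on 6 of 6 CON arrays. The means were 7.03 in MUN and 7.498 in CON, so that MUN was at least 1.12-fold lower when undetected values were set to the lowest detected signal of their array (adjusted p = 0.105).

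For several of the genes below CON the probes differed. TCP1, a subunit of the chaperonin that folds actin and tubulin, had -0.43, and its other 2 probes had -0.03 and -0.18. G3BP1, a scaffold of stress granules, had -0.66 on the brighter probe and 0.03 on the other. FTSJ1, a methyltransferase of transfer RNA, had -0.31 on the brighter probe and 0.13 on the other. LSM1, which acts in messenger RNA decay, had -0.32. CYRIB, a regulator of actin branching, had -0.43 on the brighter probe and -0.09 on the other. IGIP had -0.41. MMD, a membrane protein that increases as monocytes mature, had 9.71, 9.90 and 10.65 in MUN and 10.21, 10.70 and 11.52 in CON. Its difference was -1.42 in females and -0.24 in males.

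**Figure D2:**
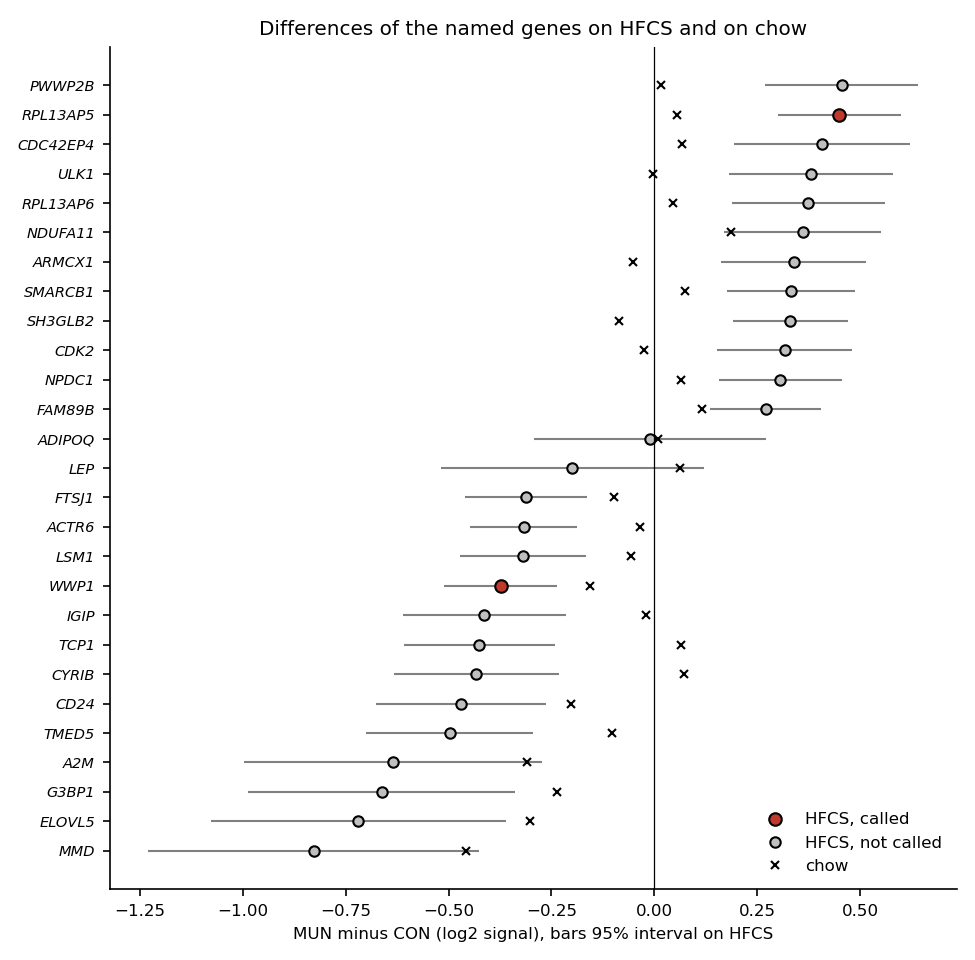
Difference of MUN minus CON in log2 signal for 27 genes on HFCS (circles, with bars of the 95% interval) and on chow (crosses). RPL13AP5 and WWP1 are filled in red as the 2 called genes, and ADIPOQ and LEP have bars that span 0.

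ELOVL5 elongates polyunsaturated fatty acids. On HFCS it had 7.23, 7.41 and 7.77 (lowest, median, highest) in MUN and 7.70, 7.94 and 9.14 in CON. The difference was -0.72 ± 0.17 (SE) and was not called (adjusted p = 0.156), and the groups overlapped at their edges. The probe was detected on 3 of 6 MUN and 6 of 6 CON arrays, so that much of MUN lay at the limit of detection. In females the difference was -1.06 and in males -0.38. On chow it was -0.30.

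A2M, an inhibitor that traps proteases of many classes and binds cytokines, had 7.26, 7.46 and 7.76 in MUN and 7.56, 8.00 and 8.99 in CON. The difference of -0.63 ± 0.18 (SE) was not called (adjusted p = 0.199), and on chow it was -0.31. The probe was detected on 4 of 6 MUN and 6 of 6 CON arrays on HFCS. Among 15 measured protease inhibitors and the A2M receptor LRP1, 9 were above and 6 below CON, with a median of 0.02. SERPING1, the inhibitor of complement C1, had 10.83, 11.05 and 11.40 in MUN and 10.31, 10.76 and 11.02 in CON (0.36, adjusted p = 0.36), but its dimmer probe had -0.01. LRP1 itself had 0.11.

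No adipocyte hormone was called. LEP, which encodes leptin, had 8.76, 8.81 and 9.40 in MUN and 8.82, 9.08 and 9.57 in CON, a difference of -0.20 ± 0.15 (adjusted p = 0.719). ADIPOQ, which encodes adiponectin, had 7.21, 7.47 and 7.82 in MUN and 7.26, 7.46 and 7.77 in CON, a difference of -0.01 ± 0.14. Its 95% interval ran between -0.29 and 0.27, for a dim probe that was detected on 3 of 6 MUN and 5 of 6 CON arrays. No sign can be given to ADIPOQ, since it turned without MUN replicate 4, 5 or 6 or CON replicate 1 or 3. CFD, which encodes adipsin, was not measured here.

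Genes of fatty acid synthesis, elongation and desaturation lay mostly below CON. Of 23 measured members 19 were lower and 4 higher, with a median of -0.16, beside a median of 0.002 over all genes. None was called, and 3 of 23 had an unadjusted p under 0.05, beside 9.73% of all genes. Without CON replicate 2 the median was -0.09. On chow 13 of the 23 were lower and the median was -0.02. SCD, the desaturase that makes oleic acid, had 6.86, 7.46 and 9.71 in MUN and 8.08, 9.22 and 12.16 in CON. Its difference of -1.68 ± 0.74 (SE) was the largest of the list, yet the groups overlapped widely and it was not called (adjusted p = 0.451). HACD3, an enzyme of elongation, had -0.28 on the brightest probe, and its other probes had -0.09 and -0.07. FASN, the synthase itself, had 0.03, and SREBF1 and MLXIPL, the regulators of this pathway, had -0.00 and -0.01.

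Triglyceride synthesis and storage genes were split. DGAT2, which adds the last fatty acid to triglyceride, had 7.39, 7.64 and 9.61 in MUN and 8.37, 8.66 and 9.89 in CON (-0.89 ± 0.42, adjusted p = 0.5). GPAM, which starts the glycerolipid pathway, had 10.15, 11.07 and 12.63 in MUN and 11.01, 11.77 and 13.21 in CON (-0.92 ± 0.46, adjusted p = 0.525). Over the 23 measured genes of lipid droplets and triglyceride turnover 10 were higher and 13 lower on HFCS, with a median of -0.06, beside 17 lower and a median of -0.10 on chow. PCK1, which supplies glycerol phosphate for storage in fat, had 7.82, 8.98 and 9.53 in MUN and 7.26, 7.90 and 8.84 in CON, a difference of 0.78 ± 0.29 that was not called (adjusted p = 0.346).

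Sterol genes had no common direction, with 8 of 13 above CON and a median of 0.01. TM7SF2, a sterol reductase, had 9.08, 10.16 and 10.87 in MUN and 8.80, 9.13 and 9.80 in CON (0.74, adjusted p = 0.319). SC5D, a sterol desaturase, had -0.50 (adjusted p = 0.308). SREBF2, the regulator of cholesterol synthesis, was detected on no MUN array and on 5 of 6 CON arrays, with means of 7.12 in MUN and 7.35 in CON. SREBF2 was not called (adjusted p = 0.241). Insulin signaling genes had a median of 0.06 over 16 members, and respiratory complexes one of -0.03 over 30.

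Interferon-stimulated genes lay above CON in 10 of 11 measured members, with a median of 0.37 on HFCS and -0.03 on chow. IFI6 had 9.47, 9.59 and 11.93 in MUN and 8.75, 9.09 and 10.03 in CON, a difference of 1.02 ± 0.36 (adjusted p = 0.33). IFI27 had 9.76, 10.27 and 12.18 in MUN and 8.63, 9.43 and 10.88 in CON (0.96, adjusted p = 0.398). OAS2, a sensor of double-stranded RNA, had 7.21, 7.39 and 9.29 in MUN and 7.04, 7.25 and 7.39 in CON. MUN replicate 2, a female, held the highest value of all 3 genes. Without it the list had a median of 0.07, with 7 of 11 members above CON.

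Inflammation genes were below CON in 7 of 8 measured members (median -0.36, and -0.23 without CON replicate 5), with none called. NFKB1, a subunit of NF-kappa-B, had -0.21. ICAM1, an adhesion molecule for leukocytes, was detected on no MUN array and on 4 of 6 CON arrays. Its means were 7.07 in MUN and 7.36 in CON, and it was not called (adjusted p = 0.43). IL6 had 7.18, 7.29 and 7.89 in MUN and 7.15, 8.07 and 8.48 in CON, and S100A9, a protein of neutrophils and monocytes, had -0.91 ± 0.55.

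Macrophage markers stood beside these values, with 7 of 13 below CON and a median of -0.18. That median ran between -0.23 without CON replicate 2 and -0.08 without CON replicate 5. On chow 12 of the 13 were already below CON, with a median of -0.08. Summed signals on HFCS were 6461 to 8753 in MUN and 5307 to 12890 in CON. CSF1R, the receptor for the macrophage growth factor, had -0.46 and LYZ, which encodes lysozyme, had -0.45, neither called. All 13 were below CON in males, with a median of -0.46, and 6 were in females, with a median of 0.02. The markers MRC1, ITGAM, MSR1, LYVE1 and CD209 did not pass the filter. The part of macrophage content in the inflammation genes was not tested.

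Genes of other cells in the biopsy also differed in their medians. Red blood cell genes were below CON in 7 of 8 members (median -0.33, and -0.21 without MUN replicate 6), with summed signals of 33860 to 73720 in MUN and 43180 to 83020 in CON, and CA1 and SLC4A1 were not measured. Mesothelial genes were above CON in 9 of 9 members (median 0.18), with 1977 to 3907 in MUN and 1591 to 3120 in CON, and their median ran between 0.06 without MUN replicate 6 and 0.30 without CON replicate 1. ITLN1, an omentin of mesothelium, was detected on 6 of 24 arrays, and UPK1B, KRT8, KRT7 and CALB2 did not pass the filter. Endothelial genes had a median of -0.01, and fibroblast and progenitor genes one of -0.07. The ranges overlapped for every cell type, and the part of cell content in the gene differences was not tested.

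Chaperones were below CON in 12 of 14 members, with a median of -0.23 on HFCS and 0.01 on chow, and -0.12 on HFCS without CON replicate 3. HSPE1, the mitochondrial partner of HSPD1, had 9.97, 10.22 and 10.54 in MUN and 10.23, 10.78 and 11.32 in CON, a difference of -0.53 ± 0.15 that was not called (adjusted p = 0.208). HSPD1 had -0.43, and its 2 dimmer probes had -0.18 and 0.11. SPARC, a matrix protein, had -0.49 among 28 collagens and matrix genes whose median was -0.02. IGFBP4, a binding protein of insulin-like growth factors, had 9.94, 10.41 and 10.87 in MUN and 9.35, 9.90 and 10.38 in CON (0.46, adjusted p = 0.322).

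**Figure D3:**
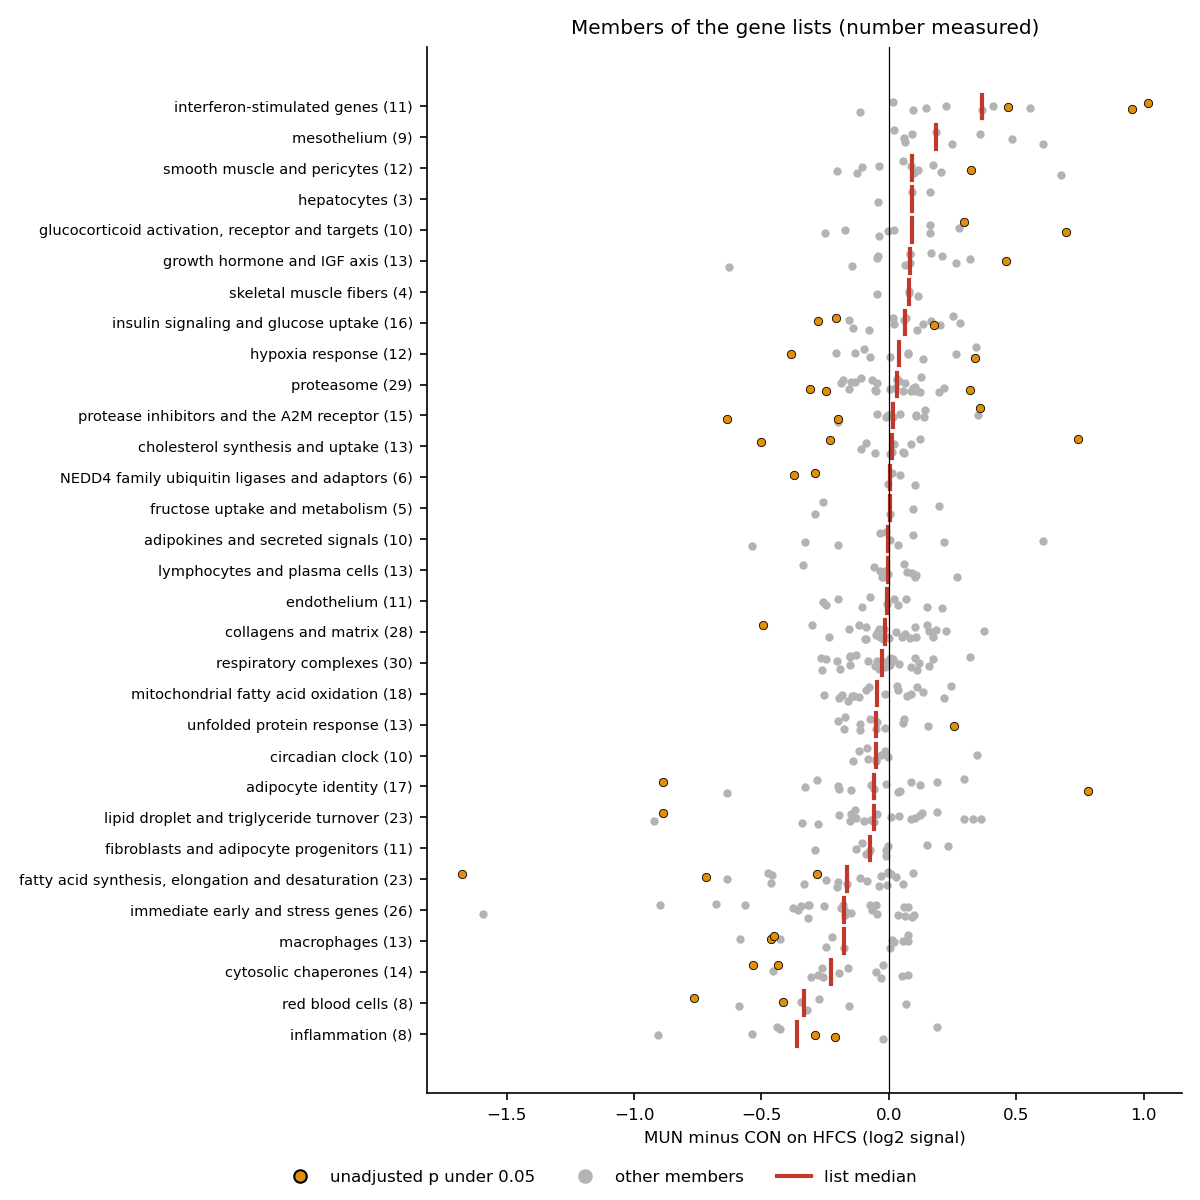
Difference of MUN minus CON on HFCS in log2 signal for the measured members of 31 gene lists, with list medians as red bars and members of unadjusted p under 0.05 in orange. Medians run between -0.36 for inflammation and 0.37 for interferon-stimulated genes, and members of nearly every list lie on both sides of 0.

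The maternal difference was also compared between the sexes. The MUN minus CON difference in females minus that in males was called for 17 genes, or 0.183% of those tested, 11 of them positive (0.119%) and 6 negative (0.0647%), and 1165 (12.6%) had an unadjusted p under 0.05. In all 17 called genes the 2 sexes had opposite signs on HFCS. A choice by a large difference between the sexes favors opposite signs, and their share over all genes was not determined. On chow, before the challenge, the difference in females minus that in males had the same sign as on HFCS in 16 of these 17. Its median on chow, turned to the sign on HFCS, was 0.54, beside 1.0 on HFCS. The pattern by sex is therefore not shown to belong to HFCS. The chow biopsies came from the same animals, so the shared sign is not an independent check. The share of all genes with a shared sign was not determined. Each sex rests on 3 animals per group, and the count of called genes ran between 1 and 46 when 1 replicate was left out.

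WSB1, an adaptor of a ubiquitin ligase, was called without any 1 of the 12 replicates. Its log2 signals were 8.49, 8.57 and 8.79 in MUN females and 8.11, 8.17 and 8.42 in CON females, and 8.12, 8.15 and 8.20 in MUN males and 8.76, 8.91 and 9.10 in CON males. MUN lay above CON in females and below CON in males, with no overlap in either sex. With so few animals of each group in a sex, such separation can arise by chance. Its share among all genes was not determined. WSB1 also had the smallest p of the test between the sexes, so its separation is not independent of that choice. The differences were 0.38 in females and -0.76 in males (1.15 ± 0.16 between them, adjusted p = 0.00363).

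PTMA, a nuclear protein that binds histones, had 8.81, 8.98 and 9.07 in MUN females and 8.64, 8.77 and 9.02 in CON females, against 8.44, 8.60 and 8.69 in MUN males and 9.71, 10.15 and 10.48 in CON males. The CON males stood alone. C7, a component of the complement attack complex, had 8.45, 8.99 and 9.07 in MUN females and 7.51, 7.77 and 7.95 in CON females, and 7.55, 7.92 and 8.49 in MUN males and 8.77, 9.16 and 9.5 in CON males. Its differences were 1.09 in females and -1.15 in males (adjusted p = 0.0172), and C7 was called in 8 of the 12 fits without 1 replicate. PTMA was called in 9 of them.

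IGFBP3, the main carrier of insulin-like growth factors in blood, had 10.34, 10.39 and 10.79 in MUN females and 9.41, 9.54 and 10.09 in CON females, and 8.94, 9.20 and 9.73 in MUN males and 10.16, 10.23 and 10.80 in CON males. The differences were 0.83 in females and -1.11 in males (adjusted p = 0.0415). IGFBP3 was called in 3 of the 12 fits without 1 replicate, where its adjusted p reached 0.132. Of the other genes RPL14 was called in 9 and FTH1P3 in 8 of these fits, and the rest in 1 to 5. The receptor FGFR3 (0.60 in females, -0.39 in males) and the transcription factor TEAD2 (0.35, -0.33) had the same orientation. So did the ribosomal protein genes RPL14 (0.32, -0.52) and RPLP1 (0.52, -0.57), the ferritin pseudogene FTH1P3 (0.39, -0.75), and MCUB (0.11, -0.74) and TMEM70 (0.30, -0.60), whose products sit in mitochondria. ANXA5, which binds phosphatidylserine, was turned the other way, with -0.56 in females and 0.54 in males, as were LSM10, RABL3, ZNF106, GTPBP6 and ATP6V1E1.

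**Figure D4:**
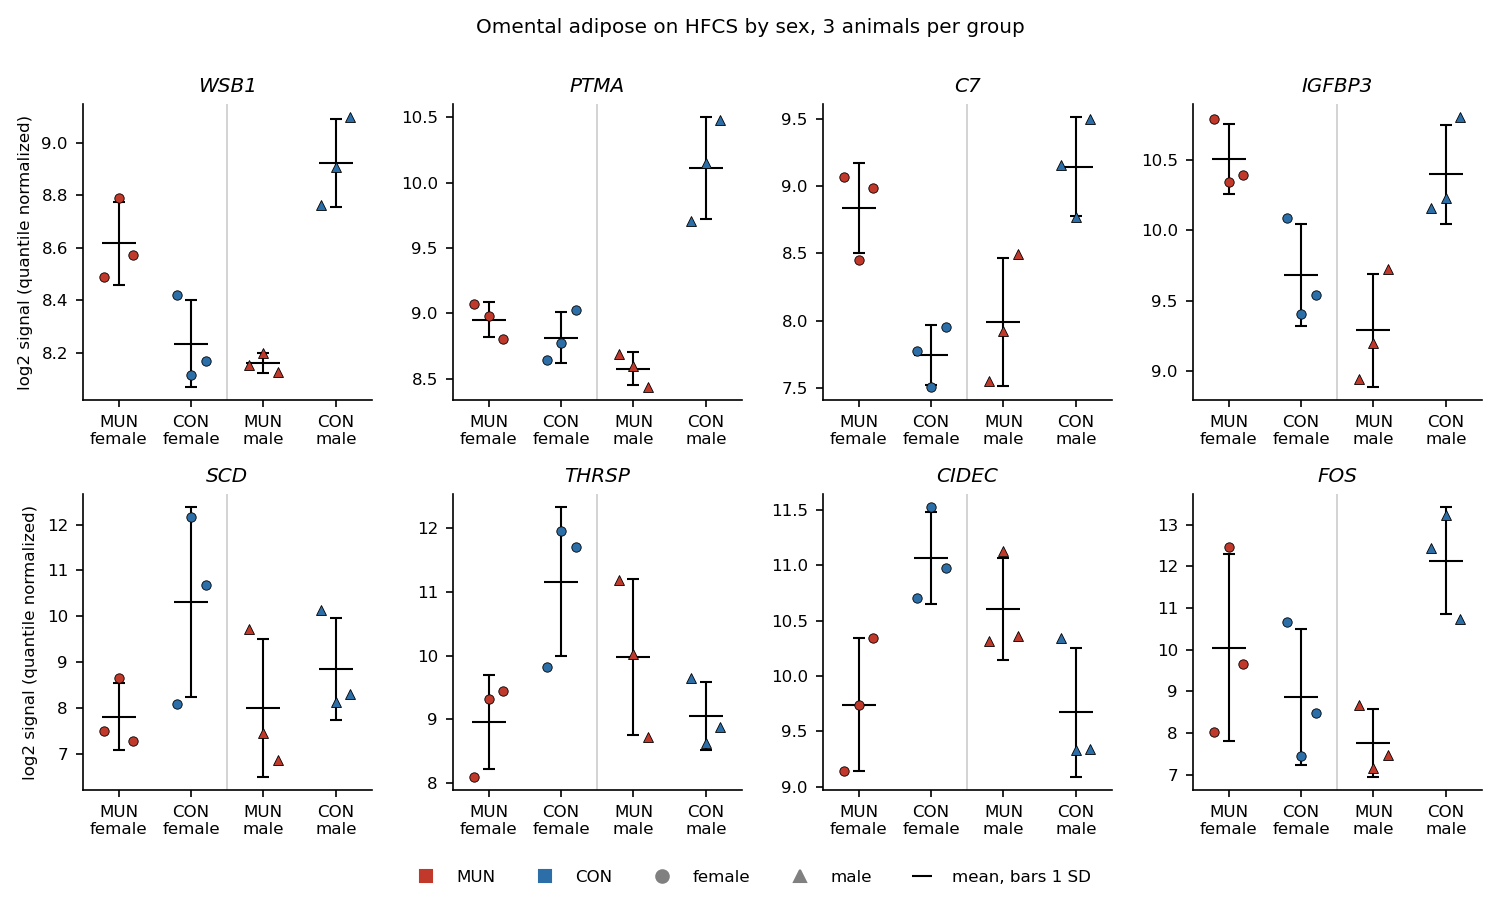
Log2 signal on HFCS of 8 genes in MUN and CON females and then MUN and CON males, 3 animals each, with bars of 1 SD about the mean. WSB1, PTMA, C7 and IGFBP3 were called for a difference between the sexes, and SCD, THRSP, CIDEC and FOS were not.

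Several lists divided by sex in their counts, although none of their members was called except IGFBP3. Over all genes 50.3% were below CON in females and 47.0% in males. Immediate early and stress genes, which answer stimuli within minutes, were above CON in 24 of 26 members in females (median 0.27) and below CON in 23 of 26 in males (median -0.57). Over both sexes the median of these genes was -0.18, and -0.04 without CON replicate 5, a male. On chow 21 of the 26 were already below CON over both sexes, with a median of -0.13. The test between the sexes gave 13 of 26 an unadjusted p under 0.05. FOS had 8.02, 9.65 and 12.47 in MUN females and 7.45, 8.48 and 10.66 in CON females, and 7.15, 7.46 and 8.68 in MUN males and 10.73, 12.45 and 13.23 in CON males. The males did not overlap and the females did, and the share of all genes without overlap in males was not determined. The immediate early and stress genes had the same signs by sex as WSB1, PTMA and C7. Their part in those differences was not tested.

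Lipid genes mostly leaned the other way. Fatty acid synthesis genes were below CON in 21 of 23 members in females (median -0.23) and in 8 of 23 in males (median 0.05). The test between the sexes gave 5 of 23 an unadjusted p under 0.05, beside 12.6% of all genes. THRSP, a regulator of lipogenesis, and CIDEC, which fuses lipid droplets, were chosen after their values were seen. THRSP had 8.11, 9.32 and 9.45 in MUN females and 9.82, 11.70 and 11.95 in CON females, and 8.73, 10.03 and 11.18 in MUN males and 8.63, 8.88 and 9.65 in CON males. The difference was -2.20 in females and 0.93 in males (adjusted p = 0.25). CIDEC had -1.32 in females and 0.93 in males (adjusted p = 0.057). GPAM had -1.99 and 0.15, and SCD, below CON in both sexes, had -2.50 and -0.85.

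Respiratory complexes and mitochondrial fatty acid oxidation leaned the same way as the lipid genes. Of 30 genes of respiratory complexes 25 were below CON in females (median -0.24) and 8 were in males (median 0.21), and 13 had an unadjusted p under 0.05 between the sexes. For fatty acid oxidation 13 of 18 were below CON in females and 3 of 18 in males. Adipocyte markers as a whole had medians of -0.20 in females and 0.08 in males. The part of adipocyte content in these values was not tested.

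**Figure D5:**
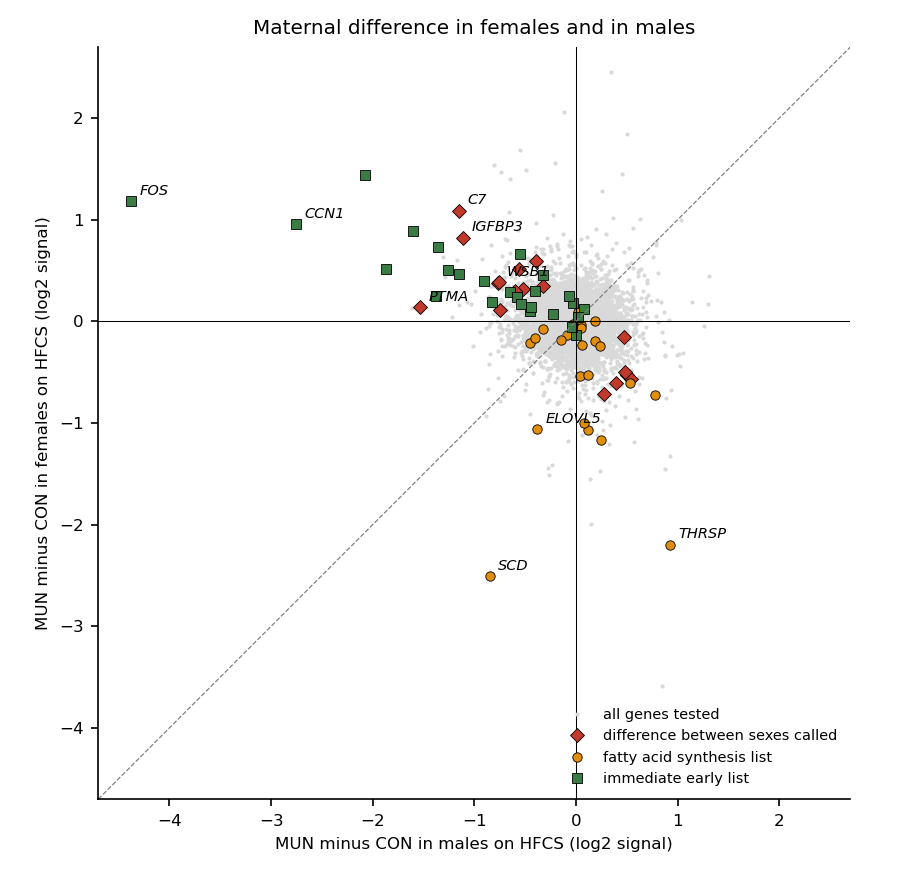
Difference of MUN minus CON on HFCS in males (horizontal) and in females (vertical), in log2 signal, for all 9277 genes tested in grey. The 17 genes called between the sexes (red diamonds) lie in the 2 quadrants where the sexes have opposite signs, most immediate early genes (green) lie upper left and most fatty acid synthesis genes (orange) lie below 0 in females.

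The difference between maternal groups on HFCS was then set against that on chow in the same animals. The fit called 0 genes (0.0%) for a change between diets in the MUN minus CON difference, where the smallest adjusted p in limma was 0.9996, and 358 genes (3.86%) had an unadjusted p under 0.05. RPL13AP5 differed by 0.39 ± 0.10 more on HFCS than on chow, and WWP1 by -0.22 ± 0.09. The call of these 2 genes on HFCS and not on chow is therefore not shown to differ between the diets.

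Finally, the same maternal contrast on HFCS was taken in liver and in skeletal muscle of these animals, in separate fits. The limma fits called 0 genes in either tissue. At an unadjusted p under 0.05 there were 224 of 8685 genes in liver and 344 of 8052 in muscle. Of the liver arrays 3, and of the muscle arrays 1, correlated weakly with the rest, and without them these counts were 465 and 765. Among genes also measured in adipose, the share at an unadjusted p under 0.05 was 2.32% in liver and 4.32% in muscle. Without the weak arrays it was 5.3% in liver and 9.67% in muscle. The weak liver arrays were all from MUN animals, 1 of them on HFCS. The weak muscle array was from a CON animal on chow. RPL13AP5 had 0.22 ± 0.40 in muscle and -0.54 ± 0.64 in liver with all arrays, and 0.23 ± 0.11 and 0.00 ± 0.12 without the weak ones. WWP1 had 0.20 ± 0.36 in muscle and -0.13 ± 0.17 in liver with all arrays, and 0.21 ± 0.24 and -0.04 ± 0.12 without the weak ones. The other values are without the weak arrays, a choice made after the data were seen. TMED5 had -0.28 in muscle and 0.07 in liver, and TCP1 had -0.36 in muscle and -0.06 in liver. ELOVL5 and A2M had 0.06 and -0.04 in liver and did not pass the filter in muscle. Signs were compared for 27 genes, the 24 of smallest adipose p in either direction with A2M, LEP and ADIPOQ. In muscle 23 were measured and 21 of these had the sign they had in adipose, beside 60.3% of all genes measured in both tissues. These shares are of unlike sets, since most of the 27 were picked by their adipose p. The tissues come from the same animals, so a shared sign is not an independent check. In liver 13 of 23 had the same sign, beside 55.2%, and with all arrays 9 of 23, beside 51.6%.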

How the data were processed

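The deposited intensity values were probe signals that the authors exported from GenomeStudio without normalization, between 62.1 and 36505.6 for 47231 probes. The deposited detection score, under columns headed as p-values, is near 1 for bright probes. The authors' own table, used as an alternative, held quantile normalized intensity on a linear scale. Their tests were made in Partek. Versions are not given in the sources used here.

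Probes with a score above 0.95 on at least 6 of 24 adipose arrays were kept (15084). Signals were put on the log2 scale and quantile normalized. Of the kept probes 11214 had 1 gene symbol in the series' probe table, and the brightest represented each gene (9277 genes). Group means of 4 groups (8 with sex) were fitted in R 4.3.3 with limma 3.58.1, p-values were adjusted by Benjamini-Hochberg over all genes, and the fits were tested on simulated data. Tables and figures were made in Python 3.11.15. The SE is the moderated one, and 12 animals limit the precision. Samples of 1 animal pair the diets, not the maternal groups. The residuals of the 2 arrays of an animal had a median correlation of 0.203 (above 0.1 in 9 of 12 animals, consensus 0.105), and animal as a block was an alternative.

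Named genes were ELOVL5, WWP1, A2M, LEP, ADIPOQ and CFD, the 12 of smallest p in each direction, called genes first, and up to 3 of smallest p in each of 31 lists. Other genes named were chosen after their values were seen, among them those called between the sexes. Genes and lists were chosen with earlier results of these data known. Alternatives changed background, filter, normalization, probes, arrays, weights, covariates, the model and the fold threshold, and left out each animal.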

Additional observations from a re-analysis of the deposited data

Results flagged for a closer look

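Single animals stood apart from the other 5 of their group in 12 of 236 group and measure combinations, or 5.08%, where chance gives about 1 in 20. MUN replicate 2, a female, was high for IFI27 (12.18, the others 9.76 to 10.44), OAS2 (9.29, the others 7.21 to 7.70) and SC5D (9.44, the others 8.75 to 8.96). MUN replicate 4, a male, was high for DGAT2 (9.61, the others 7.39 to 7.90) and low for TNNI2 (7.11) and TSC22D3 (11.12). MUN replicate 1 was high for IL6 at 7.89, MUN replicate 5 for SLC2A8 at 9.01 and MUN replicate 6 for DES at 8.15. CON replicate 6 was high for FTSJ1 at 8.30 and CON replicate 2 was low for CD8A at 7.53. CON replicate 3 had 14438 detected probes, the others 12965 to 13443.

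For 17 genes the MUN minus CON difference on HFCS itself differed between females and males, by the limma test of that difference, with adjusted p of at most 0.0435. The difference in females minus that in males was 1.15 for WSB1, 1.67 for PTMA, 0.84 for RPL14, 1.14 for FTH1P3, 2.24 for C7, 1.08 for RPLP1, 0.86 for MCUB, 0.90 for TMEM70, 0.68 for TEAD2, 1.94 for IGFBP3 and 0.99 for FGFR3. It was -1.03 for LSM10, -1.10 for ANXA5, -0.98 for RABL3, -1.002 for ZNF106, -0.99 for GTPBP6 and -0.63 for ATP6V1E1.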

How the results depend on the processing

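The count of 2 genes called on HFCS (1 higher, 1 lower in MUN) became 0 after normexp background correction, 1 (higher) with normalization over all 72 arrays, 1 (lower, TMED5) with the 12 HFCS arrays alone, 4 (2 higher, 2 lower) with sex as a covariate, and 0 to 3 without 1 replicate. With animal as a block it was again 2, the same 2 genes, and no other call changed under that block, where 461 genes had an unadjusted p under 0.05 between diets (358 without it). On chow and between diets every setting called 0 genes. The 17 genes called between the sexes became 4 after normexp, 39 among genes detected on all 24 arrays, 74 with array weights, 2 with an ordinary linear model, and 1 to 46 without 1 replicate. Unadjusted counts without a filter were 1383 on HFCS, 675 on chow and 703 between diets, and for genes detected on all 24 arrays 578, 172 and 188. Without 1 replicate they were 725 to 1027, 291 to 393, 300 to 410, and 921 to 1180 between the sexes. ADIPOQ (-0.01, -0.0757 to 0.0469) and ALB (-0.04, -0.119 to 0.0204) changed sign without 1 replicate. Of 2587 values for 114 named genes 2553 kept direction and call. A block for slide could not be fitted, since no slide is named. Dim probes limit the size of differences.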
